A study of Drosophila melanogaster with 2 samples.

Results

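The genes described here are 34 listed fly genes for axon guidance and neuronal adhesion, of 13968 protein-coding genes in the annotation. They were taken by name, and each was examined for binding by CG32532, a predicted paired-class homeodomain protein. The DNA that the protein was attached to was mapped by ChIP-seq, in which chromatin is pulled down with an antibody and sequenced. Embryos of Drosophila melanogaster were taken whole at 8 to 24 h of age from flies whose transgene makes CG32532 joined to enhanced green fluorescent protein (eGFP), and the antibody was against GFP. The age is that of the source name; a separate age entry in the labels is far higher and conflicts with it. There was 1 group with 2 biological replicates, so no conditions could be compared, and no control without the fusion protein was analysed here. What promoter drives the transgene is not given. Embryos were used whole, so the strength of a peak cannot be divided into the number of cells bound and the binding in each cell, and whether the bound cells were neurons was not measured.

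Peaks came from the authors' conservative set of 5325 peaks, called the replicated set, in which peaks are kept by how well their rank repeats between lists (the irreproducible discovery rate, IDR). Each peak was given to the protein-coding gene with the transcription start site (TSS) nearest to its summit. A peak within 500 bp of that TSS was called a promoter peak and any other a distal peak. By this rule 29 of the 5325 peaks belonged to the listed genes, 14 at promoters and 15 distal. The own set of replicate 1, called on that library alone, held 3957 peaks and the own set of replicate 2 held 6850. Depth is unknown for either library, since no counts of reads come with the peaks. The signal value is the authors' measure of peak strength, whose scale is not given. It was read for each replicate from the strongest overlapping peak of that replicate's list before thresholding, and is also given as a multiple of the median over replicated peaks, which was 67.8 in replicate 1 and 116 in replicate 2.

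Growing axons are steered by secreted and membrane-bound ligands that attract or repel them through receptors on the growth cone. At the midline of the fly nerve cord, Slit repels axons through Robo receptors and Netrins attract them through Frazzled, while semaphorins act through plexins. Cell surface proteins that bind their own kind (homophilic adhesion) or a matching partner then hold axons in bundles and join them to the right muscles or neurons.

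The sequences below are 200-bp windows centred on summits, read from the RefSeq copy of the dm6 assembly (Release 6) on the forward strand, 5′ to 3′. They are the strongest promoter peak (PlexA), the strongest intronic peak (side), and windows of ligand, regulator and adhesion genes that differ in the motifs they hold. Capitals mark TAATTA, the core site of many homeodomain proteins, TATCGATA, the site of the promoter factor DREF, and GAGAG, the site of GAGA factor, each on either strand. The caps, side and Sema1a windows hold TAATTA, the PlexA window holds TATCGATA and GAGAG, the comm window holds a long run of overlapping GAGAG copies, and the NetB window holds none of the motifs searched.
PlexA, chr4:1027187-1027386: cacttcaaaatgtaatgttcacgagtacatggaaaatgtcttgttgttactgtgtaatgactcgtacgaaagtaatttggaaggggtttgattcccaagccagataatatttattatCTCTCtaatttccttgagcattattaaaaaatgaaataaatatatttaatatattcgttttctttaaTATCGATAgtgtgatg
side, chr3R:27407123-27407322: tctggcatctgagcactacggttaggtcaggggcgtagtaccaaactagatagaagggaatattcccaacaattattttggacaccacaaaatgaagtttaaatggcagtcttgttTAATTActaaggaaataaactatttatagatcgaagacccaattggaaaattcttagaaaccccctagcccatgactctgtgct
Sema1a, chr2L:8541921-8542120: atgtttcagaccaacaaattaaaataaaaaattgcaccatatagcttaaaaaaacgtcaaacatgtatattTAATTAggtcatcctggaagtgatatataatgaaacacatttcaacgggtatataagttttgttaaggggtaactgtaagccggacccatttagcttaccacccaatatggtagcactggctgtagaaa
caps, chr3L:13236709-13236908: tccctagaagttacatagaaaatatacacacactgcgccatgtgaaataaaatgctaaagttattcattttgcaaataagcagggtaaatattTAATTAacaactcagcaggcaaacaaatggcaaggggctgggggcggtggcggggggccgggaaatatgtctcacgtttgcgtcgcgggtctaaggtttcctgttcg
comm, chr3L:15729336-15729535: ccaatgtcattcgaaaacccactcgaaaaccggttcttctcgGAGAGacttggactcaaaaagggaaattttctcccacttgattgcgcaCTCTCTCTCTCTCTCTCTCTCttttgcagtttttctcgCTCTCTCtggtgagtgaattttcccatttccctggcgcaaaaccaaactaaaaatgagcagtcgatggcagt
NetB, chrX:14743890-14744089: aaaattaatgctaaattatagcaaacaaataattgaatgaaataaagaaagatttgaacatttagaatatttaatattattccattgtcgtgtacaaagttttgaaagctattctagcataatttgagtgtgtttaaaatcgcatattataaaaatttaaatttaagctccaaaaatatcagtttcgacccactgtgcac

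Of the 34 listed genes, 16 (47.1%) were nearest to at least 1 replicated peak, where 3451 of all 13968 genes (24.7%) were. The listed genes also have longer surroundings than most genes. The stretch of sequence nearer to a gene's TSSs than to those of any other gene, called its territory, had a median of 29.9 kb over the listed genes, from 5.78 kb at Ephrin to 93.9 kb at Con, against a median of 4.25 kb over all genes. When all genes were put into 10 groups by territory length, 27 of the 34 fell into the group with the longest territories. In that group 14 of 27 listed genes (51.9%) had a peak, beside 585 of 1396 genes (41.9%), a smaller gap than over all genes. Adding up, over the 34 genes, the share of genes with a peak in each one's own territory group gave 13.4 genes, so that 16 is 1.20 times this sum. The number of peaks, 29, was 0.927 times the sum of the group means. Per 100 kb of territory the listed genes had 2.39 peaks, the genes of the longest group 2.10 and all genes 3.87. The listed genes had at most 3 peaks each.

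**Figure D1:**
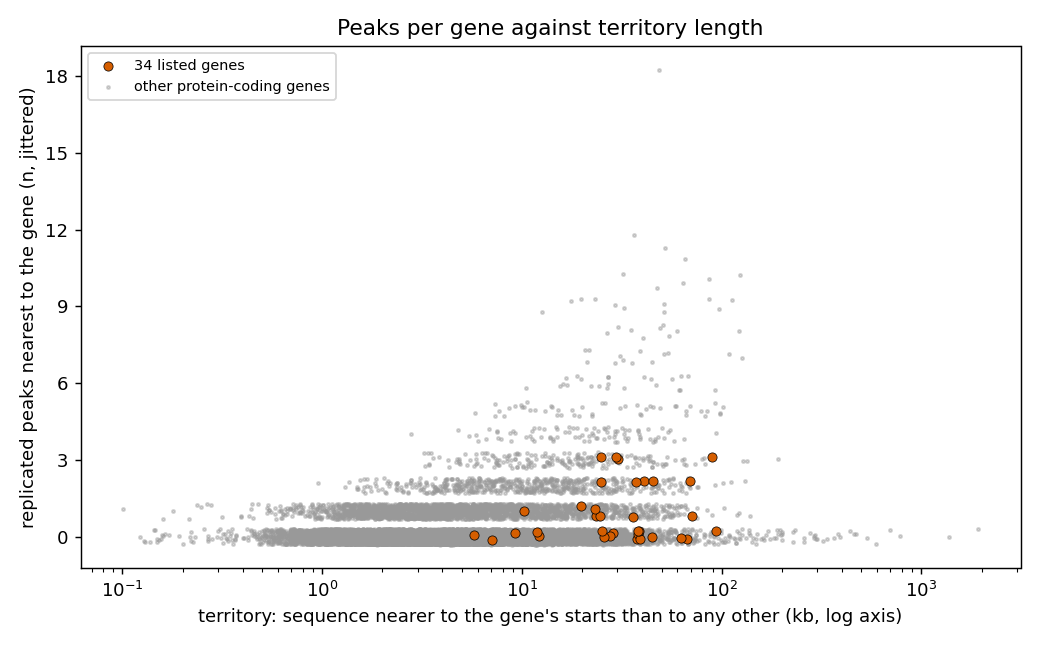
Number of replicated peaks nearest to each gene (vertical axis, jittered) against its territory length (kb, log axis) for the 34 listed genes and the other protein-coding genes with at least 0.1 kb of territory. The listed genes lie to the right, with a median of 29.9 kb against 4.25 kb over all genes, and have 0 to 3 peaks.

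Promoter and distal binding were also counted apart. Listed genes with a promoter peak numbered 13 of 34 (38.2%), beside 18.0% of all genes, and those with a distal peak 12 of 34 (35.3%), beside 10.7%. Within the longest territory group, 11 of 27 listed genes (40.7%) had a promoter peak against 21.7% of the group, and 12 of 27 (44.4%) had a distal peak against 33.8%. Of the 29 peaks 51.7% were distal, against 72.6% of the 1450 peaks of the longest group and 46.6% of all peaks. No test was made of these shares.

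The promoter share differed between the replicates' own sets. Replicate 1's own set, which is the result without replicate 2, gave a promoter peak to 5 of 34 listed genes (14.7%, beside 14.6% of all genes), namely Lar, PlexA, Sema1a, trn and robo1. In the longest territory group it gave one to 3 of 27 listed genes (11.1%), below the 16.3% of the group. Replicate 2's own set gave a promoter peak to 16 of 34 (47.1%, beside 20.8%), and to 14 of 27 (51.9%, beside 27.9%) in the longest group. The listed genes thus stood above their group at promoters in replicate 2 and not in replicate 1. For any peak the own sets of replicates 1 and 2 gave 12 of 34 (35.3%, beside 20.5%) and 22 of 34 (64.7%, beside 28.7%), and in the longest group 10 of 27 (37.0%, beside 35.5%) and 20 of 27 (74.1%, beside 50.9%). For distal peaks they gave 8 of 34 (23.5%, beside 8.25%) and 16 of 34 (47.1%, beside 13.5%), and in the longest group 8 of 27 (29.6%, beside 27.0%) and 15 of 27 (55.6%, beside 41.5%). Distal shares thus lay above the group in both own sets, by little in replicate 1. The authors' larger optimal set of 7718 peaks gave any peak to 23 of 34 (67.6%, beside 31.5%), a promoter peak to 19 (55.9%, beside 22.7%) and a distal peak to 17 (beside 15.2%).

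**Figure D2:**
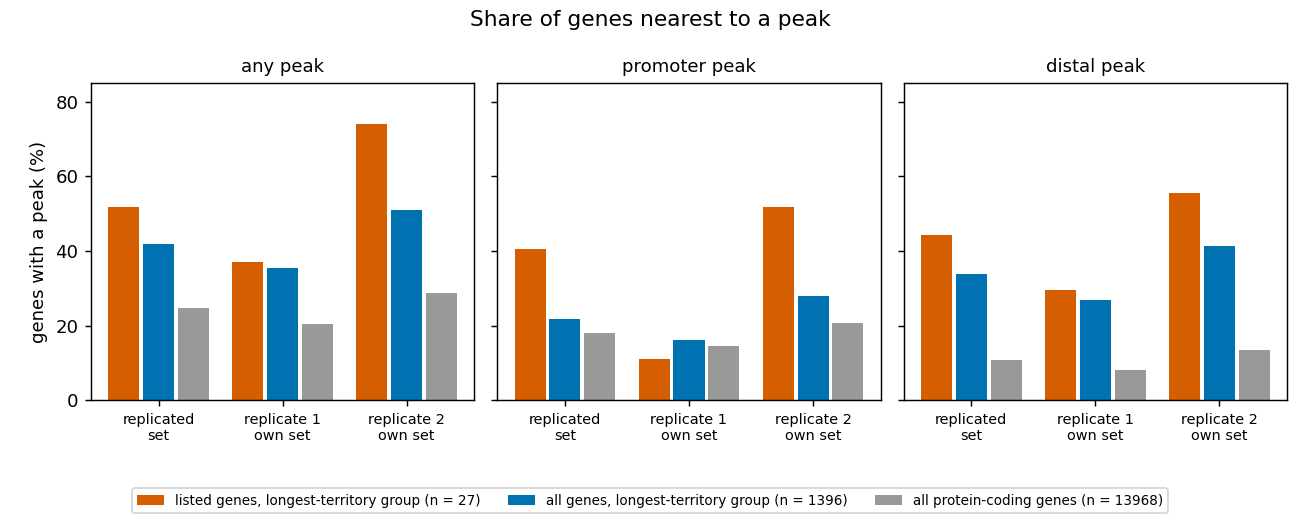
Share of genes (%) nearest to any peak, a promoter peak or a distal peak in the replicated set and in each replicate's own set. Bars stand for the 27 listed genes of the longest territory group, all 1396 genes of that group and all 13968 genes; at promoters the listed genes are at 40.7%, 11.1% and 51.9% in the 3 sets, the group at 21.7%, 16.3% and 27.9%.

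The counts by role below stand beside 24.7% of all genes and 41.9% of the longest territory group, and beside 3.87 and 2.10 peaks per 100 kb of territory. With 7 to 11 genes a role, 1 gene moves a share by many percentage points. Among the guidance ligands, 4 of 7 genes (57.1%) had a peak, with 2 promoter and 5 distal peaks in all (3.23 per 100 kb). The gene sli (2R, 15869495 to 15922118, minus strand) encodes Slit, the midline repellent. Its strongest peak lay in an intron (summit 15887149), 3768 bp downstream of an internal TSS, with signals of 96.7 in replicate 1 and 179 in replicate 2. These were 1.43 and 1.54 times the median peak (mean 1.48 ± 0.082, SD, n = 2), and both replicates' own sets held it. A weaker intronic peak stood 3024 bp downstream of the same TSS (0.54 ± 0.062 times), and a promoter peak 41 bp downstream of the gene's 5′ end (0.62 ± 0.061 times).

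Sema1a (2L, 8542147 to 8672041, plus strand) encodes a transmembrane semaphorin. Its promoter peak, shown above (summit 8542021, 126 bp upstream), had signals of 104 and 139 in replicates 1 and 2, or 1.53 and 1.20 times the median peak (mean 1.36 ± 0.23, SD, n = 2). A tRNA gene, tRNA:Asp-GTC-1-5, starts 260 bp from this summit. An intronic peak 31858 bp downstream of an internal TSS (summit 8575188) had signals of 69.2 and 115, at 1.02 and 0.99 times the median. Both peaks were held by both own sets. The gene tRNA:Phe-GAA-1-3 starts closer to the intronic summit, 4300 bp away, so Sema1a lost this peak when all genes could own one. Sema1a gained most peaks of the listed genes in the optimal set, with 8 there against 2 in the replicated set.

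Weaker ligand peaks were at the Netrin gene NetB and the secreted semaphorin gene Sema2b. The NetB peak shown above (X, summit 14743990, intronic, 5020 bp downstream of an internal TSS) had signals of 40.4 and 70.5, or 0.60 and 0.61 times the median. The Sema2b peak (2R, summit 16384982, 1542 bp upstream) had signals of 44.8 and 50.6, at 0.66 and 0.44 times, was held by neither own set, and lay in an untranslated exon of CG43187. Replicate 2's own set held another Sema2b peak, at the promoter (9 bp upstream, signal 67.8). The optimal set held a promoter peak 1 bp downstream. The sister genes NetA and Sema2a, and Ephrin, had no peak in the replicated set, the optimal set or either own set.

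Among the receptors, counted together with comm, 5 of 11 genes (45.5%) had a peak, with 6 promoter and 4 distal peaks (3.04 per 100 kb). The strongest peak of all listed genes stood at PlexA, a plexin gene on the small, largely heterochromatic chromosome 4 (1009895 to 1027101, minus strand). It lay 186 bp upstream of the TSS (summit 1027287), with signals of 283 in replicate 1 and 511 in replicate 2. These were 4.18 and 4.40 times the median peak (mean 4.29 ± 0.16, SD, n = 2), rank 243 of 5325. Only 3 replicated peaks were on chromosome 4. The antisense RNA gene asRNA:CR44031 starts 576 bp from the same summit.

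The other listed genes of chromosome 4, namely PlexB, Eph and Ephrin, had no peak in any of the 4 sets. Their territories hardly held peaks even before thresholding. PlexB had 0 and 2 peaks in the unthresholded lists of replicates 1 and 2, Eph 0 and 0, Ephrin 0 and 0, and PlexA itself 1 and 4. Unthresholded lists hold peaks near most genes, 31 of 34 listed genes (91.2%, beside 87.3% of all) in replicate 1 and 30 of 34 (88.2%, beside 80.6%) in replicate 2. At promoters they hold them for 27 (79.4%, beside 68.8%) and 26 (76.5%, beside 63.2%), and at distal sites for 30 (88.2%) in each, beside 79.0% and 71.2%. Elsewhere than on chromosome 4 every listed gene had a peak in replicate 1's unthresholded list, with beat-Ia and beat-Ic alone lacking one in that of replicate 2. How well reads can be placed on chromosome 4 was not tested.

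The gene for the repulsive Netrin receptor unc-5 (2R, 15340472 to 15368300, plus strand) had a strong intergenic peak 801 bp upstream of its 5′ end (summit 15339671). Signals were 240 and 337, or 3.54 and 2.90 times the median peak (mean 3.22 ± 0.46, SD, n = 2), and both own sets held it. A pair of overlapping promoter peaks lay 134 and 356 bp upstream of its internal TSS. They shared the same strongest signals, 41.7 and 93.2 (0.71 ± 0.13 times), and neither own set held them, so they stand for a single weak stretch of signal. These were also the summits on either side of the promoter limit, with 356 bp the farthest promoter summit and 801 bp the nearest distal one.

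Lar (2L, 19586623 to 19732069, plus strand) encodes a receptor tyrosine phosphatase. Its peak lay 97 bp upstream of an internal TSS (summit 19587129), with signals of 85.3 and 164, or 1.26 and 1.41 times the median, and both own sets held it. The Robo receptor gene robo2 (2L, 1380086 to 1420453, minus strand) had 3 peaks. The one 56 bp downstream of its TSS had signals of 42.1 and 144, at 0.62 and 1.24 times the median, and was held by replicate 2's own set alone. Those at 2485 bp upstream and 17526 bp downstream were at 0.59 ± 0.058 and 0.63 ± 0.009 times. The gene comm, whose product lowers Robo at the cell surface, had the peak shown above 1006 bp upstream (3L, summit 15729436; signals of 50.8 and 108, 0.75 and 0.93 times) and one 57 bp downstream of its TSS (39.0 and 91.0, 0.58 and 0.78 times). Of the own sets, that of replicate 2 alone held both comm peaks.

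The 3 Robo genes thus differed in the replicated set, where robo2 had 3 peaks and robo1 and robo3 none. This split is less clear in the other sets. A peak 3 bp upstream of the robo1 TSS passed in replicate 1's own set with a signal of 37.0, and one at 25 bp upstream in the optimal set. For robo3, replicate 1's own set held a peak 28287 bp downstream of the TSS and that of replicate 2 one at 24400 bp, so each replicate called a different place. The gene for the Netrin receptor Frazzled, fra, had a peak in the optimal set alone (71 bp upstream). Replicate 2's own set and the optimal set each held 2 peaks of drl, a Ryk-type Wnt5 receptor gene. In replicate 2's own set one of them lay 5 bp downstream of the drl TSS with a signal of 67.4.

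Of the genes for adhesion between matching partners, 4 of 7 (57.1%) had a peak, with 3 promoter and 4 distal peaks (2.45 per 100 kb). The muscle-surface protein Sidestepped attracts motor axons that carry Beaten path Ia. Its gene side (3R, 27375088 to 27437482, minus strand) had an intronic peak 30259 bp from the TSS (summit 27407223), with signals of 245 in replicate 1 and 359 in replicate 2. These were 3.61 and 3.09 times the median peak (mean 3.35 ± 0.37, SD, n = 2), rank 434. The noncoding gene lncRNA:CR45991 starts closer, 4448 bp away, so side lost this peak when all genes could own one. The genes beat-Ia and beat-Ic had no peak in any of the 4 sets.

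The caps and trn genes encode related leucine-rich repeat proteins, and both had a promoter peak on 3L. At caps the summit 17 bp upstream had signals of 43.6 and 110, or 0.64 and 0.94 times the median peak. At trn the summit 34 bp downstream had signals of 56.3 and 103, or 0.83 and 0.89 times, the second from a replicate 2 summit 105 bp upstream. The intronic caps peak shown above (summit 13236809, 8117 bp from the TSS) differed most between replicates of the 29 peaks, with signals of 115 and 48.8, or 1.70 and 0.42 times the median (mean 1.06 ± 0.90, SD, n = 2). No other peak of the 29 was held by replicate 1's own set while missing from that of replicate 2.

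The teneurin gene Ten-a (X, 12043698 to 12335214, plus strand) had 3 peaks, all closest to internal TSSs. The strongest lay 16 bp upstream of one (summit 12203782), with signals of 77.3 and 175, or 1.14 and 1.504 times the median peak. The others, 1454 and 8200 bp upstream of internal TSSs, were at 0.70 ± 0.051 and 0.59 ± 0.15 times. With a single TSS per gene, at its 5′ end, Ten-a had no peak. The other teneurin gene, Ten-m, was not in the replicated set but had a promoter peak 121 bp upstream in the optimal set. In replicate 2's own set it had a promoter peak 109 bp upstream with a signal of 141, or 1.22 times the median, while the strongest promoter peak in replicate 1's unthresholded list was at 29.7, or 0.44 times.

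Of the genes for homophilic adhesion proteins, 3 of 9 (33.3%) had a peak, a share between those of all genes and of the longest territory group, with 1.31 peaks per 100 kb of territory. The roles were not tested against each other. The 5 peaks belonged to Fas2, Fas3 and Nrg, which encode immunoglobulin-superfamily proteins of axon bundles and epithelia. Fas2 had signals of 44.3 and 120 at 25 bp downstream of its TSS (0.65 and 1.04 times the median) and of 37.7 and 56.5 at 33772 bp (0.56 and 0.49 times). The Fas2 promoter value of replicate 2 came from a summit 208 bp downstream, and with the summit nearest in each replicate the mean was 0.67 times the median peak, against 0.84 as reported. Fas3 had signals of 39.3 and 105 at 5203 bp (0.58 and 0.90 times) and of 56.4 and 47.0 at 94 bp (0.83 and 0.40 times). Nrg, the gene for the L1-type protein Neuroglian, had signals of 42.5 and 87.8 at 25 bp downstream (0.63 and 0.76 times). None of the 5 was in replicate 1's own set.

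The 4 Dscam genes, known for self-recognition of neurites, had no replicated peak, nor did Con or the N-cadherin gene CadN. In replicate 2's own set Dscam1 had a promoter peak (20 bp upstream, signal 106, 0.91 times the median) and Con one as well (208 bp upstream of an internal TSS, signal 91.4, 0.79 times). The strongest promoter peaks in replicate 1's unthresholded list were at 20.1 (0.30 times) for Dscam1 and 32.7 (0.48 times) for Con. CadN had a distal peak in replicate 2's own set (signal 49.9) and Dscam2 one in that of replicate 1 (signal 52.6). The optimal set held 3 peaks of Dscam1 and 1 of CadN, and none of Con or Dscam2. Dscam3 and Dscam4 had none in any of the 4 sets.

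**Figure D3:**
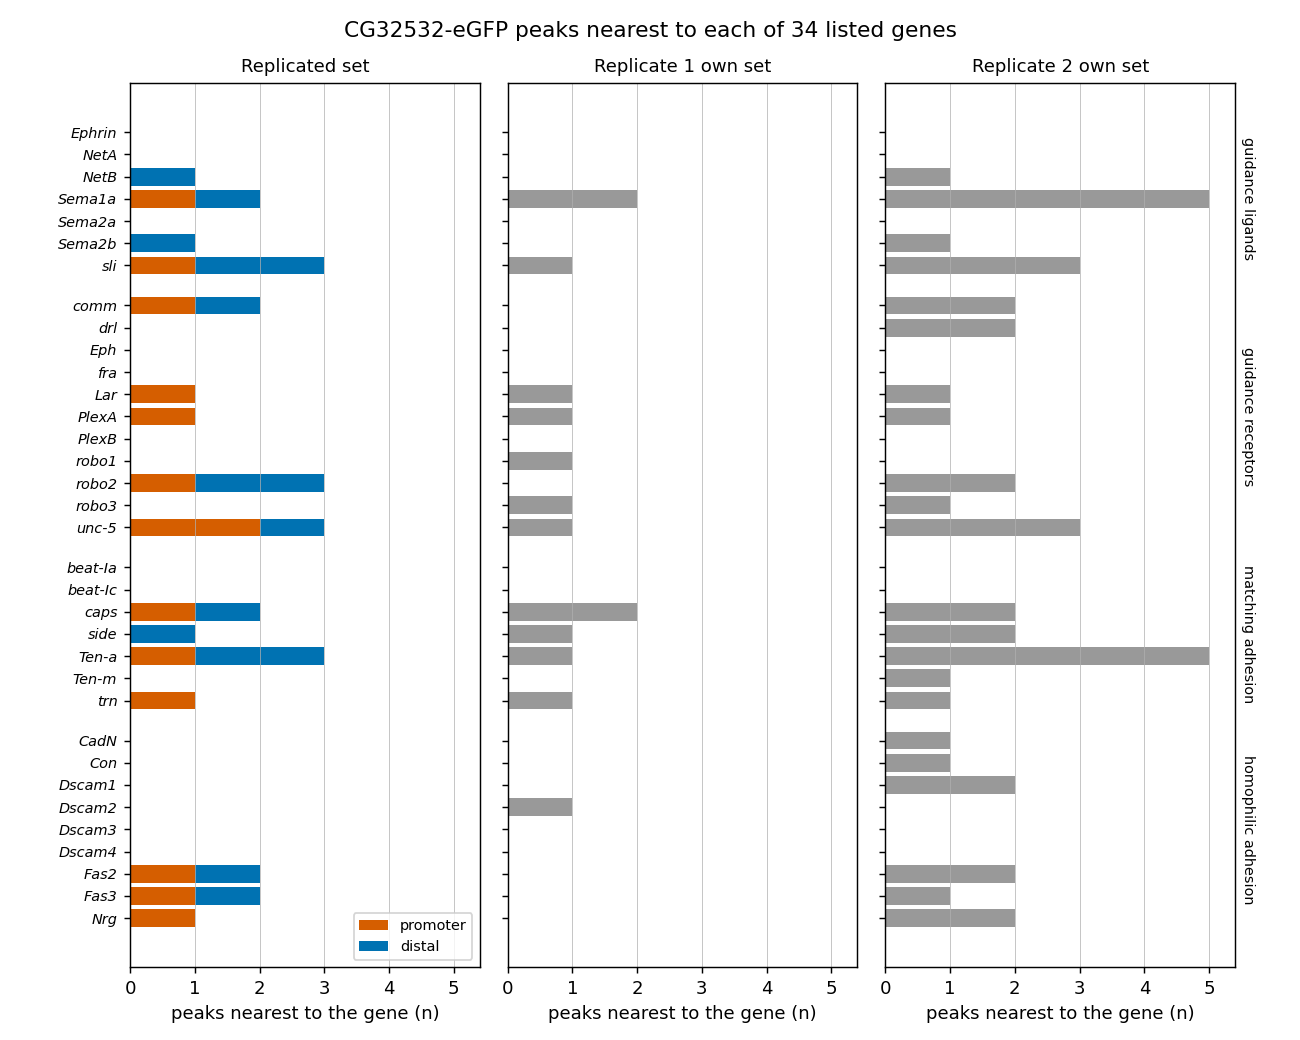
Peaks nearest to each of the 34 listed genes (horizontal axis, number of peaks), by role, in the replicated set (promoter and distal peaks coloured apart) and in each replicate's own set. In the replicated set 16 genes have 1 to 3 peaks; the own sets of replicates 1 and 2 give a peak to 12 and 22 genes.

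In all, 9 of the 34 genes had no peak in any of the 4 sets. The same count over all genes is not given here. In the optimal set, the largest of the 4, 31.5% of all genes had a peak. The 16 bound genes were all in replicate 2's own set, and 9 of them were also in that of replicate 1. Replicate 1's own set added Dscam2, robo1 and robo3, and that of replicate 2 added CadN, Con, Dscam1, Ten-m, drl and robo3. The optimal set added CadN, Dscam1, Ten-m, drl, fra, robo1 and robo3. Over the 18 genes with no replicated peak, 15 had some peak in replicate 1's unthresholded list, with the strongest between 0.38 and 0.78 times the median. In replicate 2's list 14 had one, between 0.15 times at PlexB and 1.22 times at Ten-m.

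Peaks of the listed genes were weak among replicated peaks. Their median signal was 0.742 times the median peak, with 0.666 in replicate 1 and 0.801 in replicate 2, against 0.924 over peaks of the longest territory group and 0.997 over all. Of the 29 peaks 9 (31.0%) were at or above the median rank of the replicated set, against 46.6% in the longest group. Both own sets held 9 of the 29 (31.0%), against 57.0% of the peaks of the longest group and 63.0% of all. A further 12 were held by replicate 2's own set alone, 1 by that of replicate 1 alone and 7 by neither. Both overlapping unc-5 peaks are among the 7. In the longest group replicate 2's own set alone held 420 of 1450 peaks, that of replicate 1 alone 57, and neither held 146. Over all 5325 peaks these counts were 1344, 223 and 403. Relative to the medians, 11 of 14 promoter peaks, with both overlapping unc-5 peaks among them, were stronger in replicate 2. Of the 15 distal peaks 9 were stronger in replicate 1. Promoter peaks stronger in replicate 2 numbered 227 of 393 in the longest group and 1246 of 2821 over all genes, and distal peaks stronger in replicate 1 numbered 509 of 1042 and 1124 of 2458. Across the 29 peaks the signals of the replicates had a Spearman rho of 0.485. It was 0.723 across 1435 peaks of the longest group and 0.745 across 5279 replicated peaks. Weak peaks of all genes had a low rho too, 0.042 across 1318 promoter peaks below the median rank. The lower rho of the 29, most of them weak, thus cannot be read as particular to the listed genes. These are descriptions across peaks, which were selected for agreement and share their libraries.

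**Figure D4:**
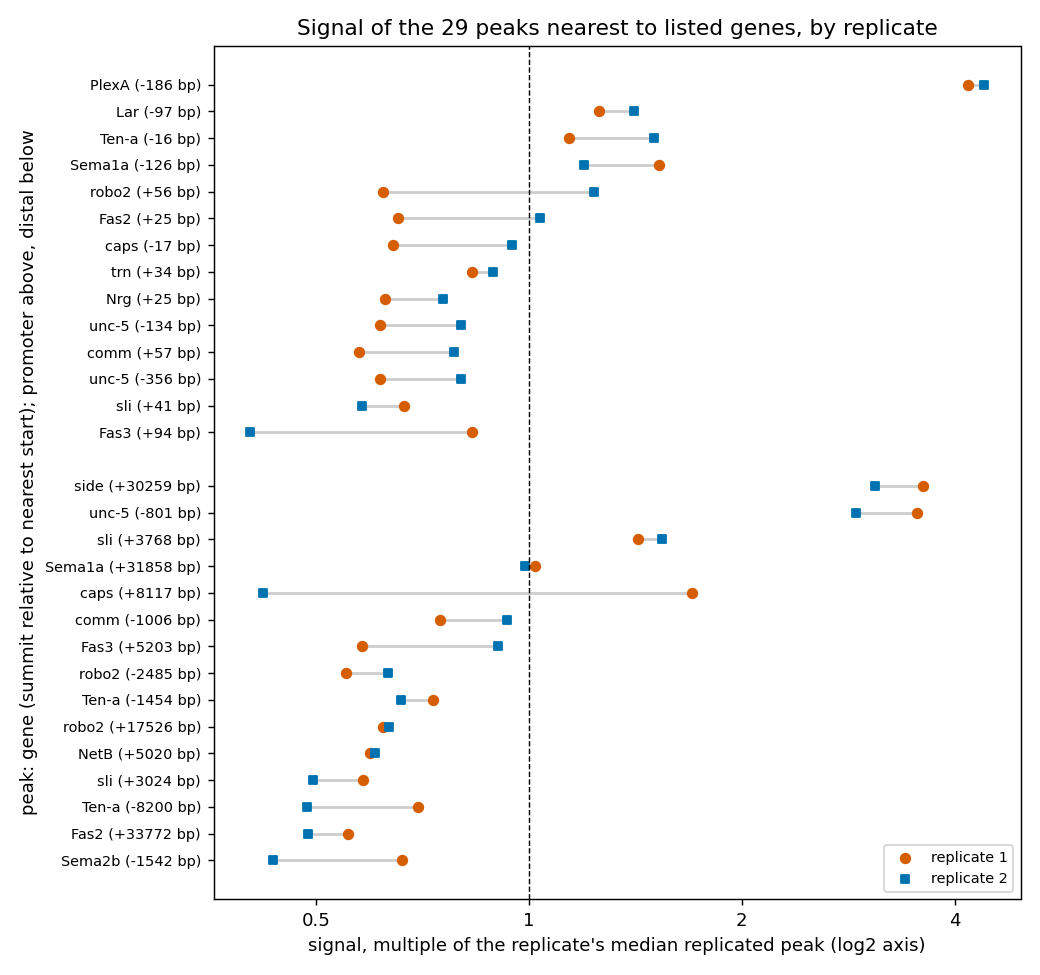
Signal of each of the 29 peaks in replicate 1 and replicate 2, as a multiple of that replicate's median replicated peak (log2 axis), promoter peaks above and distal peaks below, each sorted by pooled signal. PlexA, side and the distal unc-5 peak stand apart at 2.90 to 4.40 times; all others are below 2 times in both replicates.

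Promoter peaks of the listed genes lay closer to or past the TSS than is usual for the set. Of the 14, 7 had their summit downstream, where 597 of all 2845 promoter peaks (21.0%) and 78 of 398 (19.6%) in the longest group did. The 7 were those of robo2, Fas2, trn, Nrg, comm, sli and Fas3, at 25 to 94 bp downstream. Their median signal was 0.69 times the median peak, against 1.32 times for the 7 upstream ones. GC content in the 200-bp summit window had a median of 51.5% at the 7 downstream summits and 33.5% at the 7 upstream ones. Over all promoter peaks it was 44.5% downstream and 36.5% upstream, so the same order held there. The 7 upstream ones count both overlapping unc-5 peaks, at 33% and 32.5% GC. The highest GC content of the 14, 57%, was at the Ten-a summit 16 bp upstream.

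These features went partly together with the own sets that held the peak. All 14 promoter peaks had a median GC content of 47.75%, against 41% in the longest group and 37.5% over all promoter peaks. The 7 promoter peaks held by replicate 2's own set alone had a median GC content of 50.5%, and 5 of them lay downstream of the TSS. The 4 held by both own sets had 36.8%, and 1 of them, trn at 52%, lay downstream. Another 3 were held by neither own set, the overlapping unc-5 peaks (33% and 32.5%, upstream) and that of Fas3 (52%, downstream). Over all genes, the 623 promoter peaks held by replicate 2's own set alone had a median GC content of 41.0%, and the 1927 held by both had 36.5%. The part of base composition or of library differences in the promoter peaks was not tested.

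**Figure D5:**
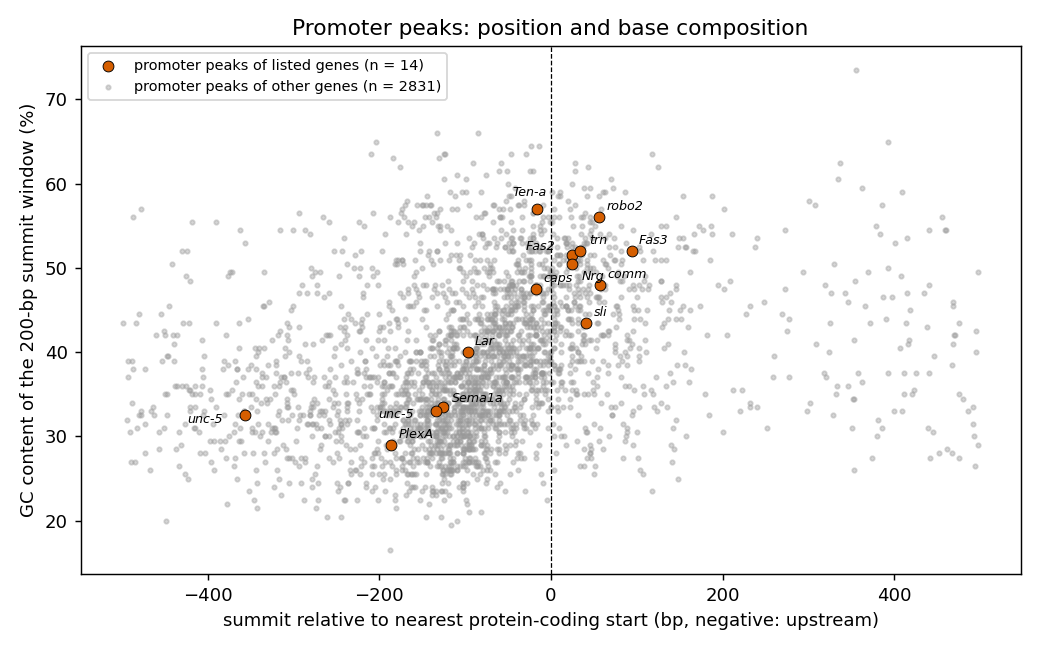
GC content (%) of the 200-bp summit window against summit position relative to the nearest TSS (bp, negative is upstream) for the 14 promoter peaks of the listed genes, labelled, and for those of other genes. The 7 listed summits past the TSS range from 43.5% to 56.0% GC, and PlexA, Sema1a and both unc-5 summits, at 29% to 33.5%, lie further upstream. Ten-a, 16 bp upstream, is highest at 57%.

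Motifs were counted on both strands in the 200-bp summit windows. TAATTA stood in 7 of 29 windows (24.1%), against 15.2% of all 5325. It was in 5 of 15 distal windows (33.3%, against 14.9% of all distal peaks), at side, caps, sli and 2 of Ten-a, and in 2 of 14 promoter windows (14.3%, against 15.4%), at Sema1a and unc-5. The unc-5 window was that of the overlapping peak 356 bp upstream. In the longest territory group TAATTA stood in 13.3% of all peaks, 15.0% of distal peaks and 8.79% of promoter peaks. The longer homeodomain palindromes, TAAT and ATTA with 2 or 3 bases between, stood in 2.38% and 2.61% of all windows and in 0 of the 29. GAGAG stood in 8 of 14 promoter windows (57.1%), against 25.3% of all promoter peaks and 43.7% of those in the longest territory group. In distal windows it stood in 4 of 15 (26.7%, against 25.1%). TATCGATA was at PlexA alone, CAGCTG, an E-box, in 3 of 29 (10.3%, against 9.63%), and GGTCACACT, motif 1 of fly core promoters, in 0 (2.01% of all). With 29 windows 1 or 2 matches move these shares by several percentage points, and a match is a description and no evidence of a site.

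The bodies of the 34 genes held 35 replicated summits, of which 13 were nearest to the TSS of another gene inside or beside the listed one. The same count over all genes or the longest territory group is not given here. It thus cannot be read as particular to the listed genes. Nrg held 5 summits, 4 of them nearest to PIP82. All of those inside fra (2, nearest to CG33752), Sema2a (2, nearest to loopin-1) and NetA (1, nearest to sbm) went to a neighbour, so these genes had no peak by the nearest-TSS rule while summits lay within their bounds.

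Other genes of the pathway were counted from 5 further lists, chosen with earlier results of these data known. Their counts in the replicated set stand beside 24.7% of all genes. Cytoplasmic effectors of guidance signals link receptors to the actin skeleton. Of these, 15 of 25 genes (60.0%) had a peak, 2.13 times the sum of the shares of their territory groups. The strongest were at tsr, the cofilin gene (intron, 4.50 ± 1.36 times the median peak, SD, n = 2), and the Rac activator gene trio (220 bp upstream of a TSS, 3.801 ± 0.49 times). Other guidance ligands, receptors and regulators had 12 of 25 (48.0%, 1.39 times), led by the receptor phosphatase gene Ptp4E (2.26 ± 0.45 times) and the ligand gene Wnt5 (1.87 ± 0.094 times). The Wnt5 peak lay 1910 bp upstream, in an intron of Ggt-1. Other neuronal adhesion genes had 16 of 29 (55.2%, 1.60 times), led by the Toll-receptor genes Toll-7 (3.46 ± 0.67 times) and 18w (2.14 ± 0.048 times). The 18w peak was intergenic, 10464 bp downstream of the TSS.

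Fewer genes of the large immunoglobulin families had a peak. The remaining beat and side genes had 4 of 19 (21.1%, 0.570 times the sum of their territory-group shares), led by side-IV with 6 peaks (strongest 2.58 ± 0.38 times the median) and beat-IIa (1.05 ± 0.097 times). The DIP and dpr genes, whose products pair up at synapses, had 2 of 32 (6.25%, 0.176 times), namely dpr20 (565 bp upstream, 3.03 ± 0.11 times) and DIP-alpha (0.64 ± 0.068 times). These ratios differed between the own sets. For effectors, 8 of 25 genes had a peak in replicate 1 (beside 20.5% of all genes), 1.38 times their sum, and 17 of 25 had one in replicate 2 (beside 28.7%), 2.04 times. For the remaining beat and side genes the ratios were 0.343 and 0.712, and for DIP and dpr genes, with 2 and 3 of 32, 0.212 and 0.220. The other guidance genes were at 1.27 and 1.45 times and the other adhesion genes at 1.71 and 1.33 times. The 34 listed genes were at 1.20 times in the replicated set and at 1.07 and 1.35 times in the own sets, and the lists were not tested against each other.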

How the data were processed

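Peak lists deposited on assembly dm6 were analysed for 2 biological replicates of 1 group, with sonicated chromatin of 200 to 800 bp, as the labels give it. No aligner, caller or version is named there. The authors' deposited score is an IDR score and not the rate itself. Its highest value is 1000, and every replicated peak has at least 830. The authors' deposited signal value has no stated scale. The 16 unnamed columns of per-replicate values in the 2 series-level ranked lists were not used.

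Genes and TSSs, all annotated transcript starts of protein-coding genes on the arms, came from Ensembl release 115 (BDGP6, dm6 coordinates). All 34 symbols matched. Territories, groups, motifs and overlaps (at least 1 bp) were computed with Python 3.11.15, numpy 2.4.6 and pandas 2.3.3, and assignment was tested on simulated data. Coordinates count from 1. With 1 group no test was run. The members, lists and named genes (the 10 listed genes with the strongest and the 5 with most peaks in full, and in each further list the 2 with the strongest peak) were chosen with earlier results of these data known. Alternatives covered the peak set, each replicate alone, stricter thresholds, overlap, promoter distance, TSS choice and greatest distance.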

Additional observations from a re-analysis of the deposited data

How the results depend on the processing

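Each of 8 summary values was recomputed under 15 alternatives. Counts were called the same within a factor of 1.5, and the other values within the SD between the replicates. After seeing the data 3 of the alternatives were chosen (20 territory groups, the nearest summit in each replicate, and leaving out the second of the overlapping unc-5 peaks). These 3 moved none of the values beyond those limits. Counts differed between the replicates' own sets, which held 3957 and 6850 peaks, and also between thresholds. With each replicate's own set alone, bound genes ran from 12 to 22, genes with a promoter peak from 5 to 16, genes with a distal peak from 8 to 16 and peaks from 14 to 42. In the same sets the distal share ran from 57.1 to 64.3%, the ratio of bound genes to the territory-group sum from 1.07 to 1.35, that of peaks from 0.648 to 0.960 and the median signal from 0.843 to 0.913 times the median peak. Among peaks above the median signal there were 8 bound genes (ratio 0.942), 5 with a promoter and 4 with a distal peak, 9 peaks (ratio 0.617), a distal share of 44.4% and a median signal of 1.36. Peaks in both own sets gave 8 bound genes (ratio 0.817, or 0.883 at 50% overlap), 4 with a promoter and 5 with a distal peak, 9 peaks (ratio 0.4998, or 0.588) and a median signal of 1.36. At the highest IDR score 7 genes had a distal peak, and 19 peaks had a distal share of 36.8% and a median signal of 0.860. The optimal set had 57 peaks (ratio 1.15, distal share 61.4%). With 1 TSS per gene the distal share was 60%, and within 10000 bp it was 44.0%. When all genes could own a peak the ratios were 1.41 for genes and 1.246 for peaks. Promoter limits of 250 and 1000 bp moved nothing beyond the factor of 1.5 for counts or the SD between replicates for other values. The cause of these shifts was not tested, beyond that stricter sets hold fewer peaks and the optimal set more. Without read counts, depth limits cannot be given. No paired analysis was possible because there is 1 group.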
